A study of Mus musculus with 14 samples.

Results

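Twistnb, Hdac9, Prkar2b, Mboat2 and Trappc12 lie on mouse chromosome 12, the chromosome of Twist1, and their signal is described here in embryo heads with and without a deleted Twist1 allele. These 5 genes were chosen from measured values, because probes of several of them differed between heads with and without the deleted allele. The differences along that allele are therefore given as a description, with no test and no p-value. Differences along Cre were tested, but the choice also took Cre into account, less directly, so small Cre differences may have been favoured. All 19 probes that carry these symbols were taken, of 45281 on the array. Of these, 11 were above background on at least 3 arrays and were tested among 21100 such probes, and the other 8 stayed between 4.18 and 4.99 on the log2 scale.

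Twist1 encodes a bHLH transcription factor needed in the head mesenchyme and neural crest for closure of the cranial neural tube and for skull formation. Deleting an allele in the germ line removes it from every cell, while Mesp1-Cre, active in the early mesoderm, removes a floxed allele only in mesodermal descendants. Twist1 can be lowered along either factor, so the genes near it can be compared along both.

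Heads were taken on embryonic day 8.5, with 5 to 7 somites, from mice of mixed C57Bl/6 x 129 x BALB/c strain, and every embryo carried 1 floxed Twist1 allele. The second Twist1 allele was wild-type in Control heads (n = 4), which lacked Cre, and in CM-Het heads (n = 3), which carried Mesp1-Cre. It was deleted in Het heads (n = 3), which lacked Cre, and in CM-CKO heads (n = 4), which carried Mesp1-Cre. Thus 7 arrays hold a deleted allele and 7 do not. The Cre gene sits in the Mesp1 locus, so Cre heads also lack 1 intact copy of Mesp1. No source used here gives the strain of each embryo's chromosome 12, or says whether an array holds 1 head or a pool, and a p-value can speak only of the spread among these arrays. The heads are mixtures of cell types, and in such bulk RNA fewer cells of a type and less RNA per cell cannot be told apart.

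Total RNA was hybridised to single-colour Illumina bead arrays with a median probe intensity of 92.3 to 116 per array, and 18242 to 19455 probes were above background on 1 array. The number of arrays limits the precision. Beadchip 1 held CM-Het and Het, beadchip 2 held Control with CM-CKO 1 and 2, and the remaining CM-CKO arrays, 3 and 4, were on beadchip 3. No Xist probe was above background on Het 3, CM-CKO 3 and CM-CKO 4, and Eif2s3y was not on 3 others. On the remaining 8 arrays both were. Values are log2 signals after background correction and quantile normalization, and they order arrays for 1 probe but not probes among themselves. Among cell type markers, the mean log2 signal of the head mesenchyme list ran from 5.96 to 6.07 in CM-CKO and from 6.68 to 6.98 in Control. The head brain list ran from 7.97 to 8.39 over all arrays with Pax6 below background, heart muscle from 6.34 to 9.47, yolk sac endoderm from 4.93 to 7.57 and primitive erythroid cells from 4.65 to 8.43. The part of these mixtures in the values below was not tested.

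Twist1 itself checks the labels of Control and CM-CKO against the other groups. It cannot tell Het from CM-Het (Het minus CM-Het -0.055, SE 0.12), so a swap of those labels would not show here. Its probe ILMN_1236188 read highest in Control (mean log2 signal 9.32 ± 0.20, SD, n = 4) and lowest in CM-CKO (7.75 ± 0.14, n = 4), with CM-Het (8.65 ± 0.14, n = 3) and Het (8.60 ± 0.12, n = 3) between them. The deleted-allele average, which is the mean of Het minus Control and CM-CKO minus CM-Het, was -0.81 (SE 0.080, limma adjusted p = 8.74e-05). The Cre average, the mean of CM-Het minus Control and CM-CKO minus Het, was -0.75 (SE 0.080, limma adjusted p = 8.25e-05). Twist1 thus differed along both factors by similar amounts. The position of this probe relative to the deletion is unknown.

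Of the 5 neighbours, Hdac9 also had averages of similar size along both factors. Along the deleted allele their 11 tested probes ran from -1.95 to 1.19 on the log2 scale, with 8 lower and 3 higher, a median of -0.37 and a median size of 0.56. The median size over all 21100 probes was 0.067. Along Cre the same 11 probes ran from -0.22 to 0.23, with a median size of 0.096, against 0.067 over all probes. Limma, with Benjamini-Hochberg adjustment over all tested probes, called 0 of the 11 in the Cre average (lowest adjusted p = 0.664), where 0.185% of all probes were called. At an unadjusted p under 0.05 it found 2 of 11, where 6.67% of all probes passed. These were Hdac9 ILMN_1242553 (-0.22, SE 0.087) and Mboat2 ILMN_1214848 (0.23, SE 0.098). The choice of genes may have favoured small Cre averages, and their intervals also limit how firmly this can be read. For Twistnb ILMN_2466121 the 95% interval ran from -1.10 to 0.98, so Cre differences within that range remain compatible with these arrays. Because calls were adjusted over all tested probes, even a difference beyond that size need not have been called. For Mboat2 ILMN_2782248 the interval ran from -0.17 to 0.24.

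**Figure D1:**
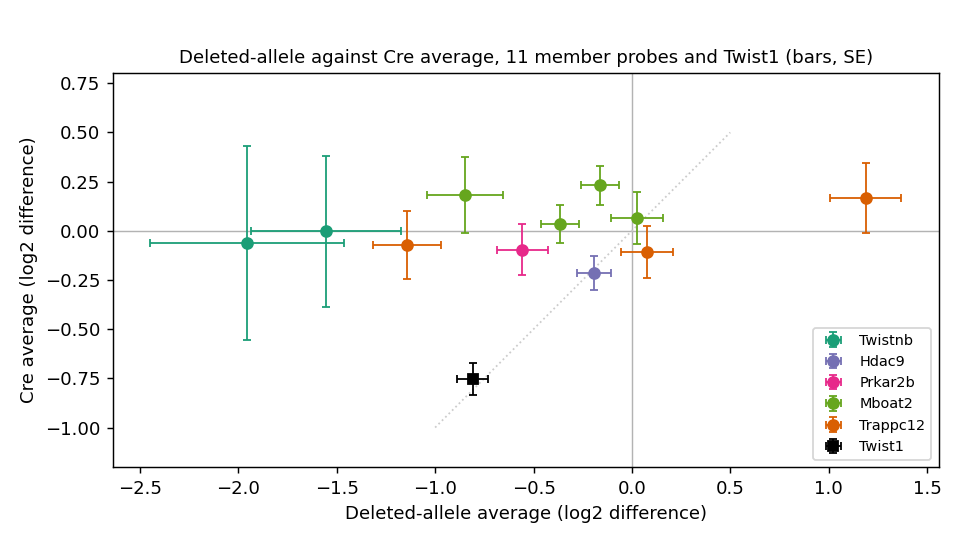
Deleted-allele average on the horizontal axis against the Cre average on the vertical axis, both log2 differences, for the 11 tested probes of the 5 neighbours (circles) and Twist1 (square), with standard errors as bars and equality of both averages as a dotted line. The neighbours spread from -1.95 to 1.19 along the deleted allele and stay between -0.22 and 0.23 along Cre, while Twist1 sits near the dotted line at -0.81 and -0.75.

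Twistnb, also known as Polr1f, encodes a subunit of RNA polymerase I, which transcribes ribosomal RNA genes. It is separated from Twist1 by 1 protein-coding gene in RefSeq order. Its probe ILMN_2466121 read 8.66, 8.42, 8.93 and 8.67 in Control 1 to 4 and 8.69, 8.11 and 8.51 in CM-Het 1 to 3. In Het 1 to 3 it read 7.78, 7.05 and 4.79, and in CM-CKO 1 to 4 it read 5.32, 8.05, 8.29 and 4.96. The arrays without a deleted allele lie close together, and those with one range from a value inside the Control and CM-Het spread (CM-CKO 3) to values far below it (Het 3, CM-CKO 1 and CM-CKO 4), so the groups overlap. The deleted-allele average was -1.95 (SE 0.49), and -1.18 in the submitters' processed table, which has no background subtraction. Het 3 and CM-CKO 4 lie within the signal range of the untested probes, so the size of this average rests in part on values near background.

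The second Twistnb probe, ILMN_1231779, ordered the arrays in much the same way. It read 8.29, 7.91, 8.24 and 8.30 in Control and 8.19, 8.04 and 8.08 in CM-Het. It read 7.36, 6.79 and 5.51 in Het and 5.49, 7.62, 8.19 and 5.22 in CM-CKO. The lowest arrays are again CM-CKO 4, CM-CKO 1 and Het 3, and CM-CKO 3 lies within the Control values. The deleted-allele average was -1.55 (SE 0.38). By group mean the order for this probe was Control 8.19 ± 0.19 (SD, n = 4), CM-Het 8.10 ± 0.077 (n = 3), CM-CKO 6.63 ± 1.50 (n = 4) and Het 6.55 ± 0.95 (n = 3). Neither the first pair nor the last pair in that order differs beyond its spread. The SD of Het and CM-CKO is several times that of the other groups, and limma estimates 1 spread for all groups together. Both probes depended on a few arrays. Without Het 3, CM-CKO 1 and CM-CKO 4, a choice made after seeing these values, the averages were -0.76 and -0.66, and without the 3 arrays that lack Xist signal they were -1.50 and -1.33. The submitters' table gave -0.92 for ILMN_1231779.

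**Figure D2:**
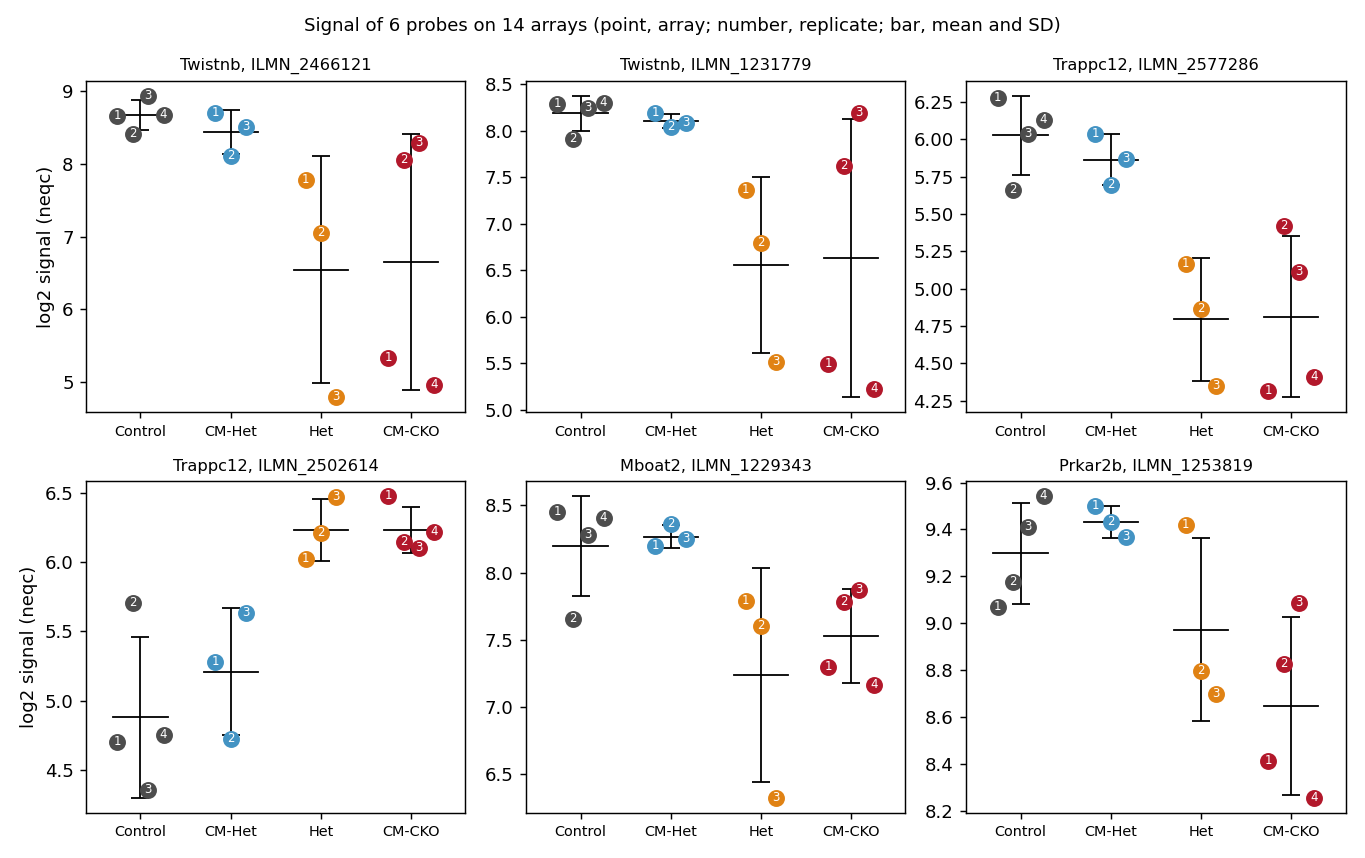
Log2 signal of 6 probes on the 14 arrays by genotype, with each point an array, the number in it the replicate, and lines for the group mean and SD (n = 4, 3, 3 and 4). Het 3, CM-CKO 1 and CM-CKO 4 are the 3 lowest arrays in 5 panels, and the panel of Trappc12 ILMN_2502614 runs the other way, with all 7 deleted-allele arrays at 6.02 or above and the others at 5.71 or below.

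Hdac9 encodes a class IIa histone deacetylase, and its gene body is known to hold enhancers of Twist1. It is the next protein-coding gene on the other side of Twist1, with 0 between them. Of its 4 probes 1 was tested, ILMN_1242553, at a low signal of 4.72 to 5.31 and above background on 13 of 14 arrays. It read 5.16, 5.31, 5.21 and 5.25 in Control, 5.03, 5.05 and 5.11 in CM-Het, 5.17, 5.19 and 4.91 in Het, and 4.72, 5.04, 4.74 and 4.80 in CM-CKO. Control and CM-CKO do not overlap, whereas Het and CM-Het lie between them or overlap with them. The deleted-allele average of -0.19 (SE 0.087) and the Cre average of -0.22 (SE 0.087, limma adjusted p = 0.664) were alike in size, unlike those of Twistnb. The other 3 Hdac9 probes were above background on 0, 0 and 2 arrays.

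Prkar2b encodes a type II regulatory subunit of protein kinase A, the kinase that cyclic AMP activates. In RefSeq order 9 protein-coding genes separate it from Twist1, on the side of Twistnb. Its probe ILMN_1253819 read 9.07, 9.17, 9.41 and 9.54 in Control and 9.50, 9.43 and 9.37 in CM-Het. It read 9.42, 8.80 and 8.70 in Het and 8.41, 8.83, 9.09 and 8.26 in CM-CKO. Of the 7 arrays with a deleted allele 5 lie below every array without one, while Het 1 and CM-CKO 3 fall among the latter. The deleted-allele average was -0.56 (SE 0.13), made up of -0.33 without Cre and -0.79 with Cre. The interaction, which is the difference between these, was -0.46 (SE 0.26, limma adjusted p = 0.379) and did not pass. Both parts and the interaction compare groups on different beadchips, so there the beadchip and the groups cannot be told apart. Without Het 3, CM-CKO 1 and CM-CKO 4 the average was -0.33. The second Prkar2b probe was above background on 0 arrays.

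Mboat2 encodes a membrane-bound acyltransferase that attaches fatty acids to lysophospholipids, and 44 protein-coding genes separate it from Twist1. Its probe with the largest difference, ILMN_1229343, read 8.45, 7.65, 8.28 and 8.40 in Control and 8.20, 8.36 and 8.25 in CM-Het. It read 7.79, 7.60 and 6.32 in Het and 7.30, 7.78, 7.87 and 7.16 in CM-CKO. Het 3 was lowest of all arrays, and the overlap between arrays with and without a deleted allele comes from Control 2 at 7.65. The deleted-allele average was -0.85 (SE 0.19), and -0.47 without Het 3, CM-CKO 1 and CM-CKO 4. Probe ILMN_2782248 went the same way at a smaller size, -0.37 (SE 0.096), with 7.18 to 7.63 on arrays with a deleted allele and 7.60 to 8.12 on the others.

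The other Mboat2 probes gave another picture. ILMN_1214848 had a deleted-allele average of -0.16 (SE 0.098) and ILMN_1233752 of 0.026 (SE 0.13), so the 4 probes ran from -0.85 to 0.026, a span of 0.88. For ILMN_1214848 the group that stood out was CM-Het. It read 5.95, 5.88 and 5.82 there, above all 11 other arrays, which lay between 5.21 and 5.66. CM-Het minus Control was 0.46 (SE 0.14) with a limma adjusted p = 0.124, the lowest of the member probes in that comparison. CM-Het shares a beadchip with Het and not with Control, and the 3 Het arrays read 5.56, 5.63 and 5.28 on this probe.

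Trappc12 encodes a subunit of a TRAPP complex, which tethers vesicles between the endoplasmic reticulum and the Golgi apparatus, and 31 protein-coding genes separate it from Twist1. Its probes disagreed in sign. ILMN_2577286 read 6.28, 5.66, 6.04 and 6.13 in Control and 6.03, 5.69 and 5.87 in CM-Het, against 5.17, 4.86 and 4.35 in Het and 4.31, 5.42, 5.11 and 4.41 in CM-CKO. All 7 deleted-allele arrays lie below all 7 others, and the deleted-allele average was -1.14 (SE 0.17). It was above background on all arrays of Control and CM-Het, on 2 of 3 of Het and on 2 of 4 of CM-CKO, so the size of this average rests in part on values at background and no fold is given.

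Probe ILMN_2502614 of the same gene ran the opposite way. It read 4.70, 5.71, 4.36 and 4.75 in Control and 5.27, 4.72 and 5.63 in CM-Het, against 6.02, 6.21 and 6.47 in Het and 6.47, 6.14, 6.10 and 6.21 in CM-CKO. All 7 deleted-allele arrays lie above all 7 others, and the deleted-allele average was 1.19 (SE 0.18). The probe was above background on 1 of 4 Control arrays, on 2 of 3 of CM-Het and on all 7 with a deleted allele. Its arrays above background without a deleted allele would alone have met the filter of 3 arrays. The other arrays without a deleted allele sat at background, so no fold is given here either. The distance between the averages of the 2 probes was 2.33.

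The remaining tested probe of Trappc12, ILMN_1231536, had an average of 0.078 (SE 0.13) at 4.40 to 5.32, above background on 6 arrays, and 4 further probes were above background on none. The annotation assigns ILMN_2502614 to a RefSeq messenger RNA and ILMN_2577286 and ILMN_1231536 to single cDNA records. Probe sequences were not used here, so the exon that each probe reads was not tested. Trappc12 therefore has no settled direction as a gene.

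The 2 opposed probes of Trappc12 are the only ones of the 11 whose deleted-allele and wild-type-allele arrays did not overlap, where 0.0806% of all tested probes (17) did not. The genes were chosen on this contrast, so nothing is read from that count. Within beadchips both probes kept the sign of their averages, though each such comparison also changes Cre and so is not the deleted-allele average. On beadchip 1, Het minus CM-Het was 1.02 for ILMN_2502614 and -1.07 for ILMN_2577286, and on beadchip 2, CM-CKO 1 and 2 minus Control was 1.43 and -1.16. The matching Twistnb values were -1.89 and -1.98 for ILMN_2466121 and -1.55 and -1.63 for ILMN_1231779. Without Het 3, CM-CKO 1 and CM-CKO 4 the Trappc12 averages were 1.09 and -0.81. In the submitters' processed table they were 0.44 and -0.40, the same signs at a smaller size.

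The same arrays were lowest for several neighbours. For 6 of the 11 tested probes, namely both of Twistnb, Prkar2b ILMN_1253819, Mboat2 ILMN_1229343 and ILMN_2782248, and Trappc12 ILMN_2577286, the 3 lowest of 14 arrays were Het 3, CM-CKO 1 and CM-CKO 4. Trappc12 ILMN_2502614 had CM-CKO 1, Het 3 and CM-CKO 4 as its 3 highest. All 3 carry a deleted allele, and the genes were chosen on that contrast, so part of this sharing follows from the choice. The share of all tested probes with these 3 arrays lowest was not counted, so nothing is read from the count of 6. These arrays come from each of the 3 beadchips, and 2 of them, Het 3 and CM-CKO 4, lack Xist signal while CM-CKO 1 does not. Of all 14 arrays CM-CKO 1 also had the highest mean signal of the primitive erythroid list (8.43) and the lowest of the heart muscle (6.34) and yolk sac endoderm (4.93) lists, and their part in its neighbour values was not tested. Twist1 did not single them out. Its lowest arrays were CM-CKO 4, 2 and 3, and Het 3 at 8.70 was the highest Het array. Within CM-CKO the Twistnb probe ILMN_2466121 thus spanned 4.96 to 8.29, where Twist1 spanned 7.65 to 7.96.

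**Figure D3:**
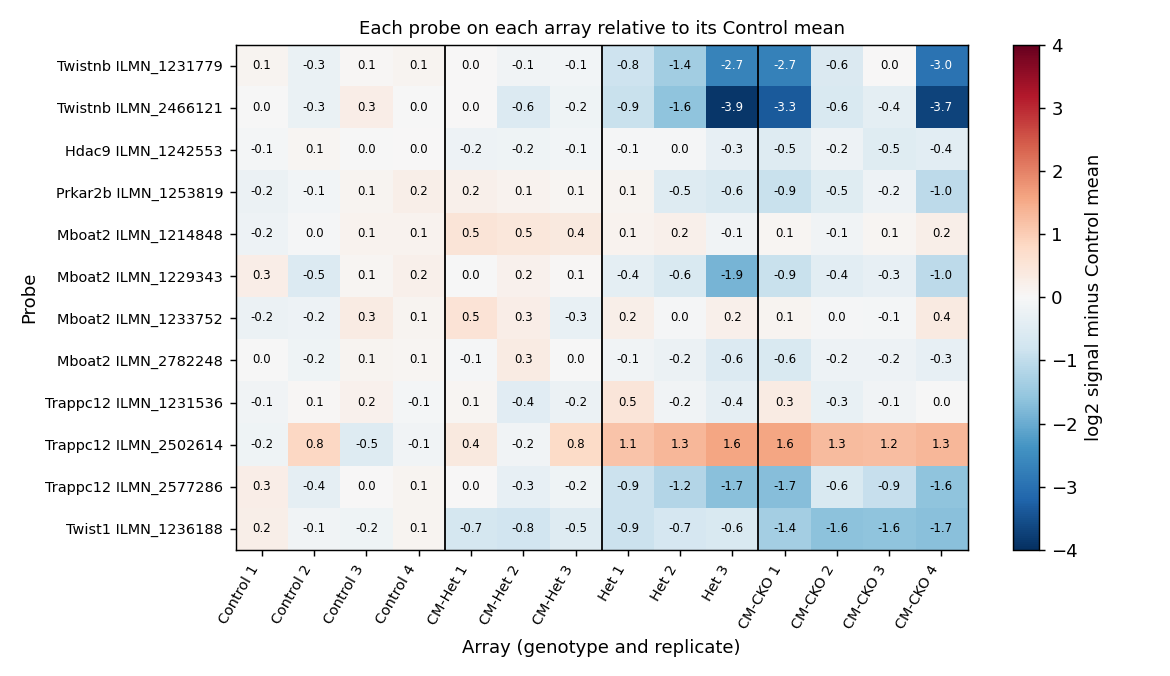
Log2 signal of each tested probe (vertical axis) on each array (horizontal axis, grouped by genotype) minus the mean of that probe over the 4 Control arrays, in colour and as a number. Blue fields for Twistnb gather on Het 3, CM-CKO 1 and CM-CKO 4, Trappc12 has a red and a blue line of opposite sign over all 7 deleted-allele arrays, and Twist1 is lower on every Cre or deleted-allele array.

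Promoters are shown for the 4 genes that had a tested probe with Het 3, CM-CKO 1 and CM-CKO 4 as its lowest arrays. Other tested probes of Mboat2 and Trappc12 did not share those lowest arrays. Each promoter runs from 250 bases before to 50 after the gene start on the gene's strand, from RefSeq (build GRCm38.p6). Capitals mark the E-box CANNTG, the core that bHLH factors such as Twist1 bind and which reads alike on both strands. The windows are chr12:33429374-33429673 (plus strand) for Twistnb, chr12:32061228-32061527 (minus strand) for the first of 2 Prkar2b starts, chr12:24831349-24831648 (plus strand) for Mboat2 and chr12:28750351-28750650 (minus strand) for Trappc12.
Twistnb: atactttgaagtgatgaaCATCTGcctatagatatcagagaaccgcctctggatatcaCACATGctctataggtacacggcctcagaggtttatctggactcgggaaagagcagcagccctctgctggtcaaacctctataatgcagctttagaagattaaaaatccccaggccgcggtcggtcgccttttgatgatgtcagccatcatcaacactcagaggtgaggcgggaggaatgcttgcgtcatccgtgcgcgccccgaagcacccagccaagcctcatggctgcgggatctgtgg
Prkar2b: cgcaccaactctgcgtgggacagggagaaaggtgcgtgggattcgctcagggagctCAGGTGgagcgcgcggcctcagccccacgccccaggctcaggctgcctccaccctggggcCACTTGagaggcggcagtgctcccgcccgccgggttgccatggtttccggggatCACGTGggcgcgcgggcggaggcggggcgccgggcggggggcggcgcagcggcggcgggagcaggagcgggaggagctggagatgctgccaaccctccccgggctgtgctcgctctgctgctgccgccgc
Mboat2: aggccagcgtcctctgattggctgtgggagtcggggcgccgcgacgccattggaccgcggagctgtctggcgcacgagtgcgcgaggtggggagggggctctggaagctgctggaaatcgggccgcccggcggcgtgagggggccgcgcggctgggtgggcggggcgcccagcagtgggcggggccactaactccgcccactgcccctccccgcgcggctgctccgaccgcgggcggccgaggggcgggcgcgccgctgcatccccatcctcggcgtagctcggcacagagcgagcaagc
Trappc12: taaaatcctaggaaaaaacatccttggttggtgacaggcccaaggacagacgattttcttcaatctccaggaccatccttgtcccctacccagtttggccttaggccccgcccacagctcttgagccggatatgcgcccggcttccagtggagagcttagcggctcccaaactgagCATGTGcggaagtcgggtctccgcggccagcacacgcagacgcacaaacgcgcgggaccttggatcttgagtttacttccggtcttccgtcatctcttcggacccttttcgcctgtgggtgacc

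Twistnb held 2 E-boxes, Prkar2b 3, Trappc12 1 and Mboat2 0. Measured from the gene start, the first match lies at -232 in Twistnb, -194 in Prkar2b and -74 in Trappc12. An E-box is common. It occurs in 72.3% of 32851 promoters of this length, with a median of 1, so a match does not single out these genes, and it is not a binding site. The second Prkar2b start held 0 and the Hdac9 starts held 2 and 3.

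Beyond the Cre average, the remaining tested comparisons called 0 of the 11 probes. As parts of the Cre average, CM-Het against Control and CM-CKO against Het share its limit from the choice of genes. The interaction called 1.45% of all probes and CM-Het against Control 0.488%. CM-CKO against Het called 0.166%. The lowest adjusted p among the 11 were 0.234 for the interaction (Mboat2 ILMN_1214848, -0.46, SE 0.20), 0.124 for CM-Het against Control (the same probe) and 0.613 for CM-CKO against Het (Hdac9 ILMN_1242553, -0.26, SE 0.12), all by limma, and each comparison had 1 member probe at an unadjusted p under 0.05. For Twistnb ILMN_2466121 the difference was -0.23 (SE 0.70) between CM-Het and Control and 0.11 (SE 0.70) between CM-CKO and Het. For Trappc12 ILMN_2577286 it was -0.16 (SE 0.25) and 0.018 (SE 0.25). CM-Het and Control lie on different beadchips, and so do CM-CKO and Het. In both of these comparisons and in the interaction, the beadchip and the groups therefore cannot be told apart.

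In the deleted-allele average 0.0664% of all tested probes were called. Of the 12 among them that belong to none of the 5 neighbours, 10 were also called in the Cre average. These include Twist1 and the mesenchyme genes Lum, Ebf3, Snai2 and Cd248. The exceptions are an unnamed probe, ILMN_1222969 (-0.75 along the deleted allele, -0.0068 along Cre), and Tcf15 (-1.08 and -0.24), named because so few probes are in this class and after their values were seen.

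The gene order around Twist1 placed Twistnb, Prkar2b, Trappc12 and Mboat2 all on one side, before Twist1, in that order of distance, and Hdac9 on the other. Besides Twist1, the other non-member genes of chromosome 12 were tested, and 0 of their 607 probes were called in the deleted-allele average. At an unadjusted p under 0.05, which 7.03% of all tested probes passed, 24 of 129 non-member probes before Twist1 did (18.6%), 13 higher and 11 lower. After Twist1 it was 38 of 478 (7.95%), with the highest share of a full stretch of 25 gene positions at 251 to 275 (8 of 42, 19%, 1 higher and 7 lower), and on other chromosomes 6.82%. Counting genes with a tested probe outward from Twist1, the positions 26 to 50 before it held 17 of 46 probes (37%), 8 higher and 9 lower. Mboat2, at position 29, lies inside that stretch, and Trappc12, at 19, lies in the nearer one, where 7 of 39 probes passed (17.9%). The farther positions 51 to 75 held 0 of 38. Chromosome 12 as a whole, at 10.2%, had the highest share of the 20 chromosomes, ahead of chromosome 19 at 9.79%. The width of the stretches was chosen with earlier results known, and probes of one gene are not independent, so these shares are descriptions.

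**Figure D4:**
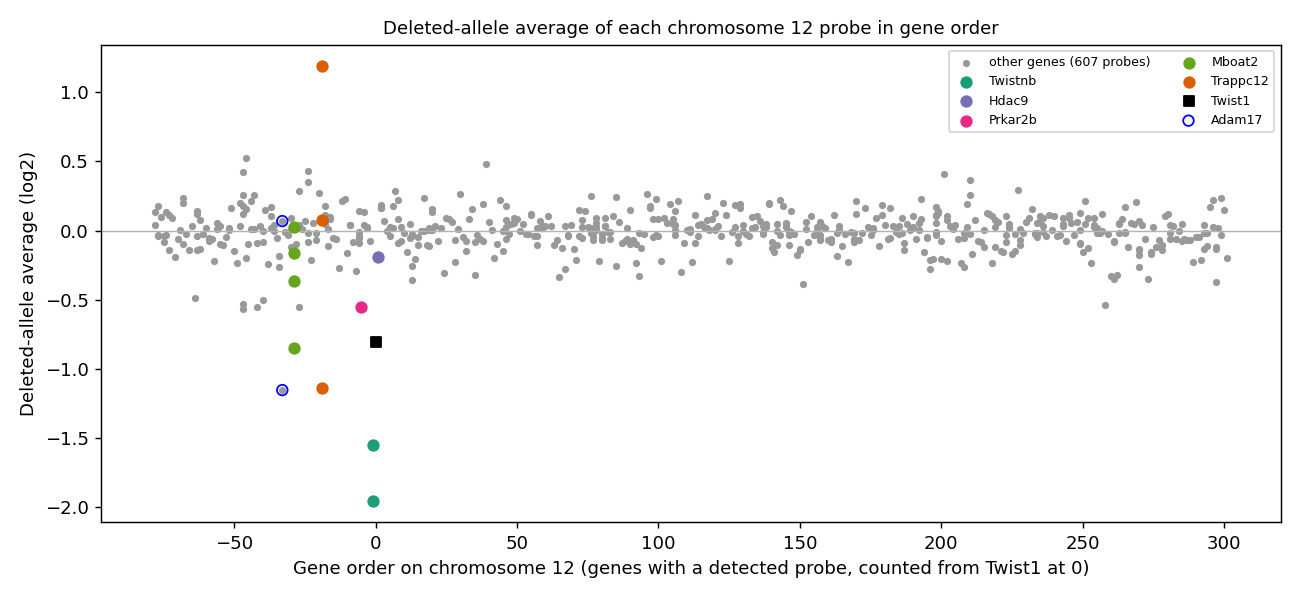
Deleted-allele average (log2 difference) of every tested chromosome 12 probe against its gene's order from Twist1, counted in genes with a tested probe, with negative numbers before Twist1. Both Twistnb probes, 2 of Trappc12 and 1 of Mboat2 lie farther from 0 than all 607 probes of other genes except 1 of Adam17 (-1.15, open circle), Prkar2b at -0.56 lies among the outermost of these, and Trappc12 and Adam17 have probes far apart.

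Some other genes of chromosome 12 also had probes that disagreed. E2f6, a repressor of the E2F family at position 47 before Twist1, had 6 tested probes with deleted-allele averages from -0.57 (SE 0.13) to 0.42 (SE 0.14). Adam17, a protease that sheds growth factors from the cell surface, at position 33, had one probe at -1.15 (SE 0.24, limma adjusted p = 0.119) and another at 0.068 (SE 0.060). Id2, an inhibitor of bHLH factors at position 27, had probes at -0.56, 0.041 and 0.29. Each was uncalled after adjustment over all probes. They are named because the signal of a probe of each followed a neighbour most closely, as the next paragraph gives. That choice favoured a low probe in each gene. How often probes of a gene disagree elsewhere was not counted.

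Likeness over the 14 arrays was measured by Pearson correlation against every other gene with a tested probe, as a description with no p, since the genes named are the closest of all. The arrays share the genotypes, so part of any likeness comes from the group means, and the value within genotypes is given beside it. For Twistnb ILMN_2466121 the closest were Trappc12 ILMN_2577286 (r = 0.92, within genotypes 0.90, Spearman 0.91), Mboat2 ILMN_1229343 (0.89, within genotypes 0.81) and Adam17 ILMN_1243942 (0.88, within genotypes 0.81). Leaving out the 2 arrays farthest from the median, Het 3 and CM-CKO 4, gave 0.90, 0.79 and 0.82. Since CM-CKO 1 also stands low, r was taken again over the 11 arrays left without all 3, after seeing the values, and was 0.87, 0.69 and 0.91.

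The Adam17 probe ILMN_1243942 read 7.02, 6.20, 7.02 and 6.93 in Control and 6.91, 6.71 and 6.72 in CM-Het, and 6.32, 5.15 and 4.46 in Het and 5.49, 6.08, 6.63 and 5.59 in CM-CKO. Het 3 was lowest here as for Mboat2, with Het 2 next and then CM-CKO 1 and 4.

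For Mboat2 ILMN_1229343 the closest were Adam17 (r = 0.94, within genotypes 0.87), Id2 (0.91, within 0.86) and E2f6 (0.91, within 0.83). For Prkar2b ILMN_1253819 they were Twistnb (0.87, within 0.85), E2f6 (0.85, within 0.70) and Nol10 (0.85, within 0.90), a nucleolar protein gene at position 42. For Trappc12 ILMN_2502614 they were inverse and smaller within genotypes, with Map4k5 at -0.89 (within -0.68), Rnf130 at -0.88 (within -0.74) and Hpcal1 at -0.87 (within -0.72). Of these Rnf130 is on chromosome 11 and the others on chromosome 12. Hdac9 ILMN_1242553 had its closest genes elsewhere, Gpx1 (0.92, within 0.91), Rbm47 (-0.88, within -0.66) and Uqcrfs1 (-0.87, within -0.86). Of the 20 closest genes, 10 were on chromosome 12 for Twistnb, 8 for Prkar2b, 11 for Mboat2, 8 for Trappc12 and 0 for Hdac9, where 3.34% of all 11394 genes are. These counts include fellow neighbours, use r with the group means left in, and start from each gene's probe of largest deleted-allele difference. Part of them therefore follows from the choice of genes and probes.

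**Figure D5:**
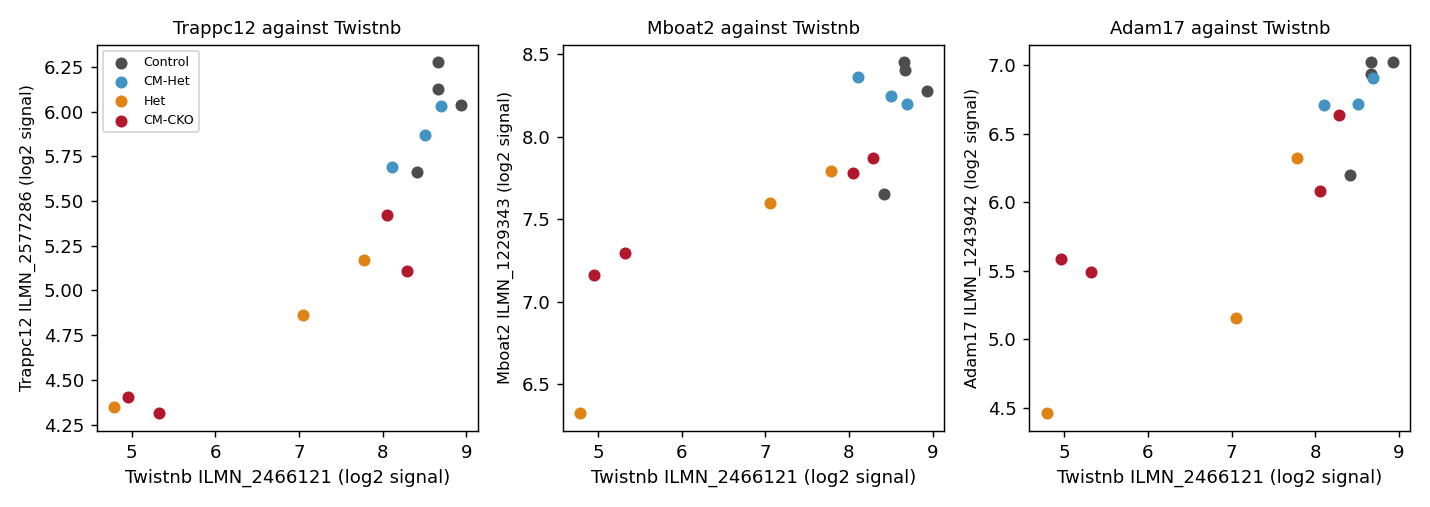
Log2 signal of Trappc12 ILMN_2577286, Mboat2 ILMN_1229343 and Adam17 ILMN_1243942 (vertical axes) against Twistnb ILMN_2466121 (horizontal axis), with each point 1 of 14 arrays coloured by genotype. The points rise together in each panel (r = 0.92, 0.89 and 0.88), and the lowest Twistnb values, at the left of each panel, belong to Het and CM-CKO arrays.

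Among genes related to the neighbours by complex, family or pathway, limma called none in the deleted-allele average. At 0.0664% over all probes, none is the count that lists of this size would mostly have. Of 28 tested probes of RNA polymerase I subunits and factors, the partners of Twistnb, 0 were called and the median was -0.0075. The largest difference was -0.30 (SE 0.071, limma adjusted p = 0.229) for Polr2e, a subunit shared by all nuclear RNA polymerases. Of 29 probes of other TRAPP subunits 0 were called (median 0.018), with Trappc5 largest at 0.20. The counts were 0 of 14 for the other histone deacetylases (median -0.015, Hdac7 largest at -0.23), 0 of 9 for protein kinase A subunits and inhibitors (median -0.0024, Pkig largest at -0.21) and 0 of 9 for other membrane-bound O-acyltransferases (median 0.011, Porcn largest at -0.37). At an unadjusted p under 0.05 these 5 lists had 5 (17.9%), 1 (3.45%), 2 (14.3%), 0 and 1 (11.1%) probes, in the order polymerase, TRAPP, deacetylase, kinase and acyltransferase, beside 7.03% over all probes. The median over all tested probes was 0.0036.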

How the data were processed

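The deposited intensity per probe is a linear bead signal without background subtraction, per the file headers and its range, and the next deposited column is its detection p-value, per the file headers. A table deposited by the authors holds log2 values, which equal the quantile-normalized log2 intensity to within 0.0329. The sources used here name no scanner, summary software or genome build. The deposited detection p-values do not follow their intensities (rank correlation -0.105 to -0.0946 per array), so they were put back by rank within each array, a step chosen after the values were seen. Intensities were then corrected and normalized with neqc (offset 16) in limma 3.58.1 (R 4.3.3). A probe was tested if its detection p was under 0.05 on 3 or more arrays.

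Group means of 14 arrays were fitted with lmFit and eBayes with a trend, adjusted by Benjamini-Hochberg over all tested probes and called under 0.05, after a check on simulated data. Alternatives changed the normalization, the probe filter, a block for beadchip 3 or for the replicate, and the arrays included. The 5 genes, the gene lists, the stretches of gene order and the counts of like genes were chosen with earlier results of these data known. Named are every probe of the 5 genes, Twist1, the 3 genes most alike to each member, called chromosome 12 genes and the largest of each list of relatives. Of 45281 probes 34885 have 1 symbol, 18 several and 10378 none in the platform annotation, and 34852 were placed in the RefSeq table (GRCm38.p6), used for names and gene order. All 5 members had a promoter in the RefSeq sequences. Same-numbered arrays of different groups did not deviate together (1 of 19 correlations over 0.1, from -0.21 to 0.19).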

Additional observations from a re-analysis of the deposited data

Results flagged for a closer look

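In the second Twistnb probe, ILMN_1231779, the array Control 2 read 7.91 on the log2 scale, away from the next lowest Control array at 8.24. Its gap was 0.853 of the range of the 4 Control arrays, above Dixon's 95% critical value. Of 24 groups of 4 arrays looked at, 1 was marked in this way, and chance marks about 1 in 20.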

How the results depend on the processing

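Member probes called in the Cre average, the interaction, CM-Het against Control and CM-CKO against Het stayed at 0 under every alternative run, with each array left out too. The 911 values of these tests under alternatives kept their side of the threshold, though 90 changed sign, all of uncalled differences of at most 0.35. Of 236 deleted-allele values of member probes 9 changed sign, all of averages of at most 0.078. In the submitters' table the averages were -0.055 for Hdac9 ILMN_1242553, 0.44 for Trappc12 ILMN_2502614 and -0.40 for ILMN_2577286, and the cause was not tested. There the averages of Twistnb (-1.18 and -0.92), Mboat2 ILMN_1214848 (-0.062) and ILMN_1233752 (0.0035) and Trappc12 ILMN_1231536 (0.024) were also over 1.5 times smaller. The counts over all genes moved more. In the deleted-allele average 14 probes became 8 with beadchip 3 as a fixed block, which does not separate beadchips 1 and 2. They became 5 without the arrays lacking Xist signal and 4 without Het 3, CM-CKO 1 and CM-CKO 4 (chosen after seeing the data), the latter 2 with fewer arrays. In the Cre average 39 became 25 with median scaling and 20 without the arrays lacking Xist signal. In the interaction 305 became 578 with median scaling, 114 with the brightest probe of each gene (fewer probes), 97 with the replicate block, 80 without the arrays lacking Xist signal and 24 without the 3 arrays named. With each array left out in turn these counts ran from 9 to 18, 26 to 54 and 72 to 263. The replicate block changed no call of a member probe, and its deleted-allele value for Twistnb ILMN_2466121 was -1.95. Signals near background, as for Hdac9, Trappc12 and the lowest arrays of Twistnb ILMN_2466121, limit what those probes show.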
